A study of Danio rerio with 8 samples.

Results

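The genes described here are 6 neuronal and glial genes of the zebrafish, elavl3 (ENSDARG00000014420), neurod1 (ENSDARG00000019566), sox2 (ENSDARG00000070913), gfap (ENSDARG00000025301), olig2 (ENSDARG00000040946) and mbpa (ENSDARG00000036186). They were given by their Ensembl identifiers with no cut on a measured value, but earlier results of these data were known when they were chosen. The count tables hold 35117 annotated genes, of which 29185 had a count in at least 1 library. All 6 were counted in each of the 8 libraries and passed the filter on low counts in every comparison.

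The 6 genes follow neural cells from progenitor to mature cell. In zebrafish, sox2 encodes an HMG box transcription factor of neural progenitors and sensory placodes, neurod1 a basic helix-loop-helix factor of cells that are turning into neurons, also used in the retina and the endocrine pancreas, and elavl3 (HuC) an RNA-binding protein made by nearly all young and mature neurons. Radial glia, which take the place of most astrocytes in the fish brain, build their intermediate filaments from the product of gfap. The transcription factor gene olig2 marks the progenitors of motor neurons and oligodendrocytes, and mbpa encodes myelin basic protein, a structural component of the myelin sheath.

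RNA was sequenced from Tg(fli1a:EGFP) zebrafish, whose EGFP reporter is under the promoter of fli1a and is known from endothelium, from some blood cells and from neural crest derived mesenchyme and cartilage. EGFP positive cells were sorted in portions of 20000 into lysis buffer, and RNA was purified with the RNAqueous micro kit (A) or the RNeasy plus micro kit (Q), to compare both kits. There were 6 RNA samples. Sorted cells of sample 1 (A_1 and Q_1) and of sample 2 (A_2 and Q_2) came from embryos labelled 3 days old and from 1 pool of fish, and both RNAs of sample 2 were split into technical portions a and b. The whole embryos (A_unsorted and Q_unsorted) carried the same transgene, were labelled 5 days old, were not sorted, and gave 1 RNA from 1 embryo for each kit. The study's methods give an age of 3 to 5 days for the fish used for sorting. A_1 and Q_1 were sequenced at another time than the other libraries, and the cDNA of sample 2 was made from less RNA with more amplification cycles than that of sample 1 and of the embryos. At the same volume, the RNA of A_1 and Q_1 was also less concentrated than that of the embryos. Sorting, age and the individual embryo therefore cannot be told apart in sorted cells against embryos. Nor can the sequencing time and RNA input in sample 1 against embryos, or the cycles and RNA input in sample 2 against embryos. Between both sorted samples, sequencing time, cycles and RNA input cannot be told apart either. Of the record for Q_1, 1 field names sample 2 and another sample 1, and the second was used.

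Between 10763174 and 19537939 reads were counted on genes in each library (median 16256352), and levels are given as counts for each 1000000 of these (CPM). A count of 3, set as the floor, was worth 0.154 to 0.279 CPM, and all members lay above that. Endothelial and cartilage genes were both higher in the sorted cells. All 13 genes of a list of endothelial markers were higher in sorted cells of sample 2 than in embryos by edgeR's quasi-likelihood test, against 23.5% of all 21377 genes tested. In sample 1, 11 of the 13 were higher, against 17.3% of all genes. The driver of the transgene, listed as FLI1 (ENSDARG00000054632), is 1 of these 13 genes. It was at 288 to 398 CPM in the 4 sorted RNA samples and at 30.7 and 24.8 CPM in the embryos. The 10 genes of a cartilage list were also all higher, in both sorted samples. They summed to 15750 to 55127 CPM in the sorted libraries, against 4270 and 2967 CPM in A_unsorted and Q_unsorted. The endothelial list summed to 752 to 913 CPM in the sorted libraries, against 170 and 129 CPM. Markers of skeletal muscle were still counted in the sorted libraries, all 7 above 0 in each, at a summed 9726 to 18469 CPM against 79903 and 97230 CPM in the embryos. Their part in the neural counts was not tested.

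All 6 neuronal and glial genes were lower in sorted cells of sample 2 than in whole embryos, where 28.2% of all genes tested were called lower. The glial filament gene gfap and the myelin gene mbpa were 11.8-fold and 11.6-fold lower, the neuronal genes elavl3 and neurod1 and the progenitor gene sox2 between 2.34-fold and 3.13-fold lower, and olig2 was 2.00-fold lower. In sorted cells of sample 1 against the same embryos, 5 of the 6 were called lower, against 25.5% of all 20254 genes tested. There, olig2 was 1.40-fold lower and did not pass the test. The embryos served in both comparisons, so these are not independent. The 6 genes were chosen with earlier results of these data known, so nothing is inferred from these counts beside the shares over all genes. None of the 6 genes reached 0 in a sorted library, and in none did a sorted library overlap the embryos (plot of CPM by library). In whole-tissue RNA, fewer cells of a type and less RNA per cell cannot be told apart. Each group holds 2 RNA samples, and the sorted ones share a pool of fish, so p-values measure only the spread between these samples, which may be technical.

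**Figure D1:**
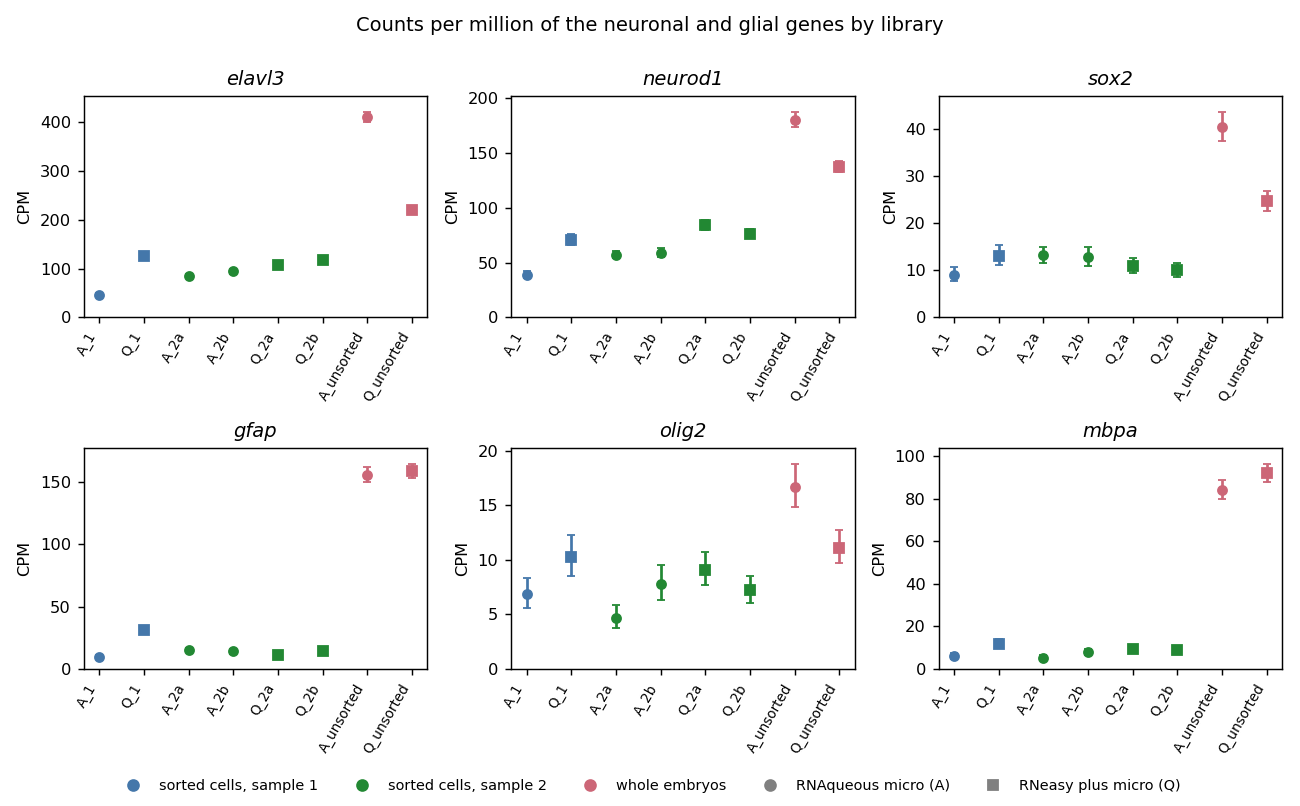
Level of each gene in CPM (vertical axes, linear, from 0) in the 8 libraries (horizontal axes), coloured by group, with circles for the RNAqueous micro kit and squares for the RNeasy plus micro kit. Bars are 95% Wilson intervals, which cover counting error only, and for each gene both embryos lie above all 6 sorted libraries, by the least for olig2 (10.2 CPM in Q_1, 11.1 CPM in Q_unsorted).

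The neuronal marker elavl3 was counted at 45.3 CPM in A_1 and 125 CPM in Q_1. Portions a and b gave 85.3 and 94.1 CPM in A_2 and 107 and 118 CPM in Q_2. The embryos gave 410.5 CPM in A_unsorted and 220.2 CPM in Q_unsorted. A_1 was the lowest library and A_unsorted the highest, so both extremes came from the RNAqueous kit. The mean over 2 RNA samples was 85.2 ± 56.4 CPM (SD, n = 2) in sample 1, 101 ± 16.9 CPM (n = 2) in sample 2 and 315 ± 135 CPM (n = 2) in embryos. The log2 fold change of sample 2 against embryos was -1.65 (SE 0.35, edgeR adjusted p = 0.0018). That of sample 1 was -1.70 (SE 0.50, adjusted p = 0.015). It was -2.42 without Q_1, -1.19 without A_1, -1.33 without A_unsorted and -1.98 without Q_unsorted. Without A_2 the first call was lost (adjusted p = 0.094, range over the alternatives 1.007e-05 to 0.094), and without A_1 or without A_unsorted the second (adjusted p = 0.12 and 0.10, range 0.0024 to 0.12).

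The proneural factor gene neurod1 was at 38.9 CPM in A_1 and 71.0 CPM in Q_1. In sample 2 it was at 57.1 and 58.9 CPM in A_2a and A_2b and at 84.2 and 76.1 CPM in Q_2a and Q_2b. The embryos held 180.4 CPM (A_unsorted) and 137 CPM (Q_unsorted). Within both sorted samples the RNeasy RNA was higher, and in the embryos the RNAqueous RNA was. Means were 54.9 ± 22.7 CPM (SD, n = 2), 68.9 ± 15.6 CPM (n = 2) and 159 ± 30.5 CPM (n = 2) in sample 1, sample 2 and embryos. The sorted cells of sample 2 were lower by a log2 fold change of -1.23 (SE 0.31, edgeR adjusted p = 0.0055) and those of sample 1 by -1.34 (SE 0.40, adjusted p = 0.017). The call of sample 2 was lost without A_2 (adjusted p = 0.13, range over the alternatives 0.00053 to 0.13). That of sample 1 was lost without A_1 (0.10), A_unsorted (0.10) or Q_unsorted (0.061), with a range of 0.0056 to 0.10.

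The progenitor gene sox2 varied least among the sorted libraries. It was at 9.08 CPM in A_1, 13.1 CPM in Q_1, 13.2 and 12.8 CPM in both portions of A_2 and 10.9 and 9.99 CPM in those of Q_2. Embryos gave 40.4 CPM in A_unsorted and 24.7 CPM in Q_unsorted, and the highest sorted RNA sample, Q_1, reached 53.1% of the lower of these. Group means were 11.1 ± 2.84 CPM (SD, n = 2), 11.7 ± 1.87 CPM (n = 2) and 32.5 ± 11.1 CPM (n = 2). The log2 fold change was -1.49 (SE 0.32, edgeR adjusted p = 0.0017) for sample 2 and -1.33 (SE 0.37, adjusted p = 0.011) for sample 1. The call of sample 2 held under all 17 alternatives, and that of sample 1 was lost without A_1 (adjusted p = 0.062) or A_unsorted (0.11), with a range of 0.012 to 0.11.

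The radial glial gene gfap had a far wider gap. It was at 9.42 CPM in A_1, 31.2 CPM in Q_1, 15.1 and 14.1 CPM in the portions of A_2 and 11.2 and 14.3 CPM in those of Q_2. The embryos were at 156 CPM in A_unsorted and 158 CPM in Q_unsorted, and their counting intervals overlapped. Q_1 stood above the 5 other sorted libraries, and sample 1 had a wide spread, with a mean of 20.3 ± 15.4 CPM (SD, n = 2), against 13.8 ± 1.32 CPM (n = 2) in sample 2 and 157 ± 2.00 CPM (n = 2) in embryos. The log2 fold change was -3.56 (SE 0.32, edgeR adjusted p = 2.858e-06) for sample 2, or 11.8-fold lower. For sample 1 it was -2.80 (SE 0.49, adjusted p = 0.00074), or 6.98-fold lower, with -3.72 without Q_1 and -2.22 without A_1. Both calls held under every alternative run.

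The oligodendrocyte lineage gene olig2 had low counts, between 82 and 278 per library, and its fold change against embryos was the closest to 0 of the 6 genes in both sorted samples. Its levels were 6.84 CPM in A_1, 10.2 CPM in Q_1, 4.70 and 7.78 CPM in the portions of A_2, 9.09 and 7.20 CPM in those of Q_2, 16.7 CPM in A_unsorted and 11.1 CPM in Q_unsorted. The 95% Wilson interval of Q_1 (8.48 to 12.3 CPM) overlapped that of Q_unsorted (9.72 to 12.7 CPM). Means were 8.53 ± 2.39 CPM (SD, n = 2), 7.02 ± 1.52 CPM (n = 2) and 13.9 ± 3.94 CPM (n = 2) in sample 1, sample 2 and embryos. The log2 fold change of sample 2 was -0.997 (SE 0.35, edgeR adjusted p = 0.028). This call did not stand without A_2 (adjusted p = 0.21), without A_unsorted (0.10), without portion A_2a (0.059) or with sample 1 added to the sorted cells (0.12), with a range of 0.011 to 0.21. For sample 1 the log2 fold change was -0.49 (approximate 95% interval -1.25 to 0.27, edgeR adjusted p = 0.33). A difference was therefore not detectable with these samples, and a 2-fold decrease lies within the interval.

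The myelin gene mbpa was at 5.96 CPM in A_1 and 11.8 CPM in Q_1. In sample 2 it was at 5.39 and 7.86 CPM in the portions of A_2 and at 9.28 and 9.10 CPM in those of Q_2. The embryos gave 84.3 and 91.9 CPM, and the highest sorted RNA sample, Q_1, reached 14.0% of the lower of these. Means were 8.88 ± 4.13 CPM (SD, n = 2), 7.79 ± 1.98 CPM (n = 2) and 88.1 ± 5.34 CPM (n = 2). The log2 fold change was -3.54 (SE 0.34, edgeR adjusted p = 5.052e-06) for sample 2 and -3.14 (SE 0.41, adjusted p = 0.00011) for sample 1, and both calls held under every alternative. Reads on multiple loci are left out by the count, so reads that mbpa shares with its paralogue mbpb would be missing from both.

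Between both sorted samples none of the 6 genes differed beyond the spread, where 10.9% of all 19639 genes tested were called. The smallest adjusted p was 0.35 (edgeR, kit as a covariate), none had an unadjusted p under 0.05, and DESeq2 called 0. The log2 fold changes of sample 2 against sample 1 were -0.67 for gfap (95% interval -1.54 to 0.19), -0.61 for olig2 (-1.47 to 0.25), -0.47 for mbpa (-1.32 to 0.38), -0.25 for sox2 (-1.08 to 0.59), 0.03 for neurod1 (-0.87 to 0.93) and 0.07 for elavl3 (-0.87 to 1.01). Each of these intervals is wide, and those of elavl3, sox2, gfap, olig2 and mbpa include a change of 2-fold. With TMM factors over all 6 RNA samples, plain CPM lies 0.31 above TMM on the log2 scale in this comparison. In sample 1 against embryos it lies 0.29 below. Each fit took its factors from its own RNA samples only, so its shift is not the same. In plain CPM the mean of sox2 was higher in sample 2, whereas the fit puts it lower. Over 12 exact binomial tests of portion b against portion a, 6 had an adjusted p under 0.05, and the largest ratio was 1.65, for olig2 in A_2. These tests allow for counting error only, not for the separate amplification of each portion. They were run on the 6 genes alone, so no share over all genes is given and nothing is read from this count.

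**Figure D2:**
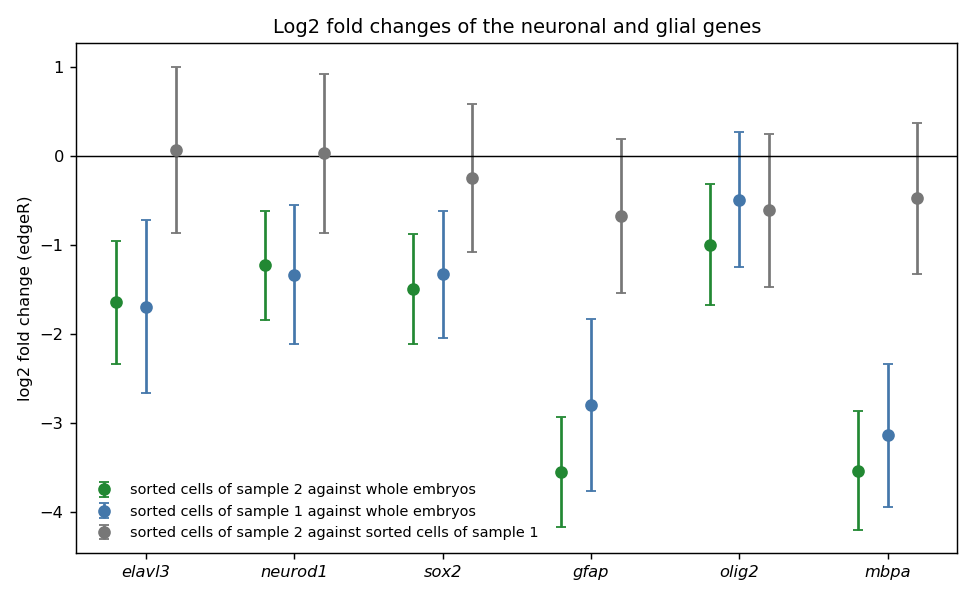
Log2 fold changes (vertical axis, edgeR with TMM) of the 6 genes (horizontal axis) in the 3 comparisons, as points with approximate 95% intervals. The intervals of gfap and mbpa against embryos lie below -1.83 in both sorted samples, that of olig2 in sample 1 crosses 0, and all 6 intervals between the sorted samples cross 0.

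Ratios of counts within 1 RNA, which need no scaling between libraries, show the same differences in another form. They were chosen after the values were seen and are given as a description, since with 15 arrangements of 4 sorted and 2 embryo RNA samples no exact permutation p can be below 0.067. For each 100 counts of elavl3, gfap had 20.8 (A_1), 25.0 (Q_1), 16.5 (A_2) and 11.4 (Q_2) counts in sorted cells and 37.9 (A_unsorted) and 72.0 (Q_unsorted) in embryos. For mbpa these values were 13.2, 9.44, 7.19 and 8.14 in the same sorted order, against 20.5 and 41.7. Counts of mbpa for each 100 of olig2, late against early in the oligodendrocyte lineage, were 87.1, 115, 107 and 114 in sorted cells and 506 and 827 in embryos. For gfap against 100 of sox2 they were 104, 238, 113 and 123 against 385 and 642. In these 4 of the 8 ratios computed, both embryos were above all sorted RNA samples.

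For each 100 counts of elavl3 there were 56.8 to 85.9 counts of neurod1 in sorted cells and 44.0 to 62.3 in embryos, and the groups overlapped. For sox2 the ranges were 9.22 to 20.1 and 9.85 to 11.2, which also overlapped. The ratio of mbpa to gfap, 37.8 to 71.6 in sorted cells and 54.2 and 58.0 in embryos, overlapped as well. Against elavl3, olig2 was the only gene of the 6 with a higher ratio in every sorted RNA, 6.69 to 15.1 against 4.06 and 5.04 in embryos.

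**Figure D3:**
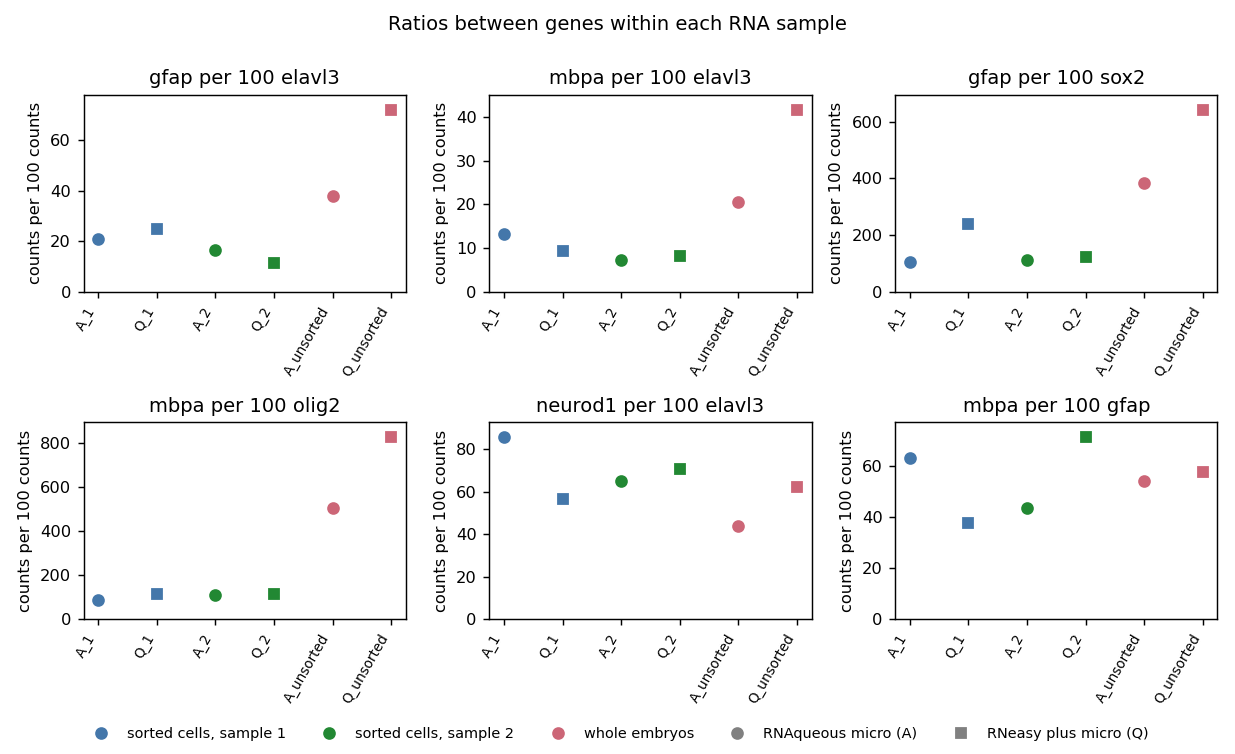
Counts of 1 gene for each 100 counts of another (vertical axes, linear, from 0) in the 6 RNA samples, with portions a and b summed and colours and symbols for group and kit. In the ratios of gfap and mbpa to elavl3, of gfap to sox2 and of mbpa to olig2 both embryos lie above all 4 sorted RNA samples, and in those of neurod1 to elavl3 and of mbpa to gfap the groups overlap.

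Lists of other genes for the same cell types were counted in the same way. A list of post-mitotic neuron genes, for the synaptic vesicle, the axonal cytoskeleton and neuronal pumps, had 24 of 26 tested genes lower in sample 2 than in embryos and 0 higher, with a median log2 fold change of -2.40 against -0.003 over all genes, of which 28.2% were called lower and 23.5% higher. In sample 1, 21 of 26 were lower and 1 was higher, where 25.5% of all genes were called lower and 17.3% higher. The neurofilament gene nefma (ENSDARG00000021351) had the largest decrease, from 15.4 and 12.2 CPM in embryos to 0.512 and 0.918 CPM in A_2 and Q_2 (log2 fold change -4.27, SE 0.45, edgeR adjusted p = 9.114e-06). The stathmin gene listed as STMN1 (ENSDARG00000004169) was the exception in sample 1, higher by a log2 fold change of 1.42 (SE 0.52, adjusted p = 0.041), and it did not pass in sample 2 (0.52, adjusted p = 0.25). The count of higher genes was 0 in sample 1 without A_1 or without A_unsorted, and 1 in sample 2 without Q_unsorted. The gene ELAVL4 (ENSDARG00000045639), a neuronal relative of elavl3 picked after its values were seen, was lower by -1.99 in sample 2 and -1.86 in sample 1.

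Genes that make, release, take up or sense neurotransmitters were lower in 19 of 22 cases in sample 2 and 18 of 21 in sample 1, with median log2 fold changes of -2.46 and -2.77, where 28.2% and 25.5% of all genes were lower. The serotonin transporter gene SLC6A4 (ENSDARG00000061165) was the only gene of this list that rose in each comparison with embryos. It was at 76.8, 41.0, 66.0 and 74.7 CPM in A_1, Q_1, A_2 and Q_2, and at 20.1 and 12.5 CPM in the embryos, a log2 fold change of 2.10 (SE 0.31, edgeR adjusted p = 0.00011) in sample 2. In mammals this transporter is also made outside the nervous system. The gene DBH (ENSDARG00000069446), for the enzyme that makes noradrenaline, was at 0.034 and 0.089 CPM in A_2 and Q_2, at or below a count of 3. In embryos DBH was at 6.72 and 6.09 CPM. TH (ENSDARG00000030621) was at 0.342 and 0.267 CPM in A_2 and Q_2, and a copy of SLC17A7 (ENSDARG00000016480) at 0.273 and 0.178 CPM. In sample 2, DBH, TH and this copy passed the filter through the embryos. They could only be called lower, and they are among the 19.

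The list named proneural factor also holds transcription factor genes of later neurons, such as ISL1 and TBR1. Of its genes, 14 of 18 were lower and 1 was higher in sample 2 (median log2 fold change -1.36). Among the 14 is ATOH1 (ENSDARG00000055294), at 0 and 0.119 CPM in A_2 and Q_2. It passed the filter through the embryos and could only be called lower. In sample 1, 12 of 17 were lower and 0 higher (-1.33). Over all genes 28.2% were lower and 23.5% higher in sample 2, and 25.5% and 17.3% in sample 1. The achaete-scute homologue ascl1b (ENSDARG00000101628), a factor of neural precursors, fell from 27.2 and 33.2 CPM in embryos to 2.90 and 4.06 CPM in A_2 and Q_2 (-3.16, SE 0.36, adjusted p = 1.927e-05). The gene EBF3 (ENSDARG00000100244), a transcription factor gene used by neurons and by mesenchyme, was higher in sample 2, by 0.91 (SE 0.35, adjusted p = 0.042), at 316 and 274 CPM in A_2 and Q_2 against 208 and 105 CPM in embryos, and it did not pass in sample 1 (0.38, adjusted p = 0.50). The call of EBF3 gave the 1 higher gene of this list, and the count of higher genes was 0 without A_2, without Q_2, without Q_unsorted or without portion A_2a. The count of lower genes of this list fell to 6 without A_2 and to 9 without A_unsorted, and in sample 1 to 6 without A_1 or without A_unsorted.

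Of the neural progenitor genes, 15 of 24 were lower and 2 were higher in sample 2 (median log2 fold change -0.99), against 28.2% and 23.5% of all genes. In sample 1, 12 were lower and 1 was higher (-1.03), against 25.5% and 17.3%. The symbol dld of this list, meant for a Notch ligand, matched a gene listed as DLD (ENSDARG00000008785), a symbol also used for a dehydrogenase, and this gene is 1 of the lower genes in both samples. The count of lower genes was 6 without A_2 and 9 without Q_2, and in sample 1 it was 7 without A_1 or without Q_unsorted. The fatty acid binding protein gene FABP7 (ENSDARG00000034650), known from radial glia, had the largest decrease in sample 2, from 12.1 and 19.1 CPM in embryos to 1.40 and 1.75 CPM (-3.37, SE 0.43, edgeR adjusted p = 3.976e-05), and did not pass in sample 1 (-1.38, adjusted p = 0.12). The other FABP7 copy (ENSDARG00000007697), named here after its values were seen, was counted far higher. It was at 1034 and 547 CPM in A_1 and Q_1, 186 and 353 CPM in A_2 and Q_2, and 1032 and 1557 CPM in embryos. In sample 2 it was lower by -2.32 (SE 0.46, edgeR adjusted p = 0.001). Both higher genes of sample 2 encode Notch receptors, which vessels also use, and the count of higher genes was 1 without A_2 or without Q_unsorted. NOTCH3 (ENSDARG00000052139) was at 69.5 and 34.3 CPM in A_2 and Q_2 against 12.8 and 11.2 CPM in embryos (2.06, SE 0.35, adjusted p = 0.00036), and 1 copy of NOTCH1 (ENSDARG00000103554) rose by 0.95 (SE 0.29, adjusted p = 0.015). In sample 1 neither passed, and the higher gene was the Notch target her4.1 (ENSDARG00000056732), at 111 and 80.0 CPM in A_1 and Q_1, 16.6 and 15.7 CPM in A_2 and Q_2, and 13.5 and 6.55 CPM in embryos.

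Astroglial genes were lower in 11 of 17 cases and higher in 2 in sample 2 (median log2 fold change -1.56), against 28.2% and 23.5% of all genes. In sample 1, 10 of 16 were lower and 2 higher (-1.92), against 25.5% and 17.3%, and the count of higher genes was 1 without A_1, without A_unsorted or without Q_unsorted. Of the glutamate transporter genes, a copy of SLC1A3 was higher in sample 2 and the others were lower. A copy of SLC1A2 (ENSDARG00000052138) had the largest decrease, from 9.60 and 5.27 CPM in embryos to 0.034 and 0.53 CPM in A_2 and Q_2, the first below the floor. Its other copy (ENSDARG00000102453), named here after its values were seen, was at 574 and 355 CPM in embryos and 106 and 92.6 CPM in A_2 and Q_2 (-2.24, SE 0.35, edgeR adjusted p = 0.00017). The copy ENSDARG00000043148 of SLC1A3, named likewise, was lower by -1.53 (SE 0.34, adjusted p = 0.0024). The copy ENSDARG00000104431 was higher, at 71.4 and 68.0 CPM against 21.4 and 25.0 CPM (1.54, SE 0.30, adjusted p = 0.0009). The inhibitor of differentiation gene ID1 (ENSDARG00000040764), which many cell types besides glia express, was the second higher gene. It was at 2041 and 1501 CPM in A_1 and Q_1, 125 and 163 CPM in A_2 and Q_2, and 65.6 and 51.2 CPM in embryos, so it also differed between both sorted samples (-3.96, SE 0.61, edgeR adjusted p = 2.919e-08).

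In the oligodendrocyte and myelin list, 10 of 18 genes were lower and 3 higher in sample 2 (median log2 fold change -1.38), where 28.2% of all genes were lower and 23.5% higher. In sample 1, 8 of 16 were lower and 3 higher (-0.96), where these shares were 25.5% and 17.3%, with a count of 5 lower genes without A_1 or without A_unsorted. The paralogue mbpb (ENSDARG00000089413), named here after its values were seen, was lower by -2.11 (SE 0.33, adjusted p = 0.00019) in sample 2 and by -1.18 (SE 0.37, adjusted p = 0.021) in sample 1, and whether it changed less than mbpa was not tested. The higher genes were the same 3 in both sorted samples, pmp22a, EGR2 (ENSDARG00000042826) and 1 copy of SOX8 (ENSDARG00000037782). The gene pmp22a (ENSDARG00000105223), for a membrane protein of Schwann cell myelin that many connective tissue cells also make, was at 2957, 2237, 1107 and 1615 CPM in A_1, Q_1, A_2 and Q_2 and at 254 and 255 CPM in the embryos. It made up 93.9% and 89.0% of the summed CPM of the list in sample 1 and sample 2, so that this sum was higher in sorted cells (1243 to 3097 CPM) than in embryos (586 and 589 CPM) although the median gene was lower.

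**Figure D4:**
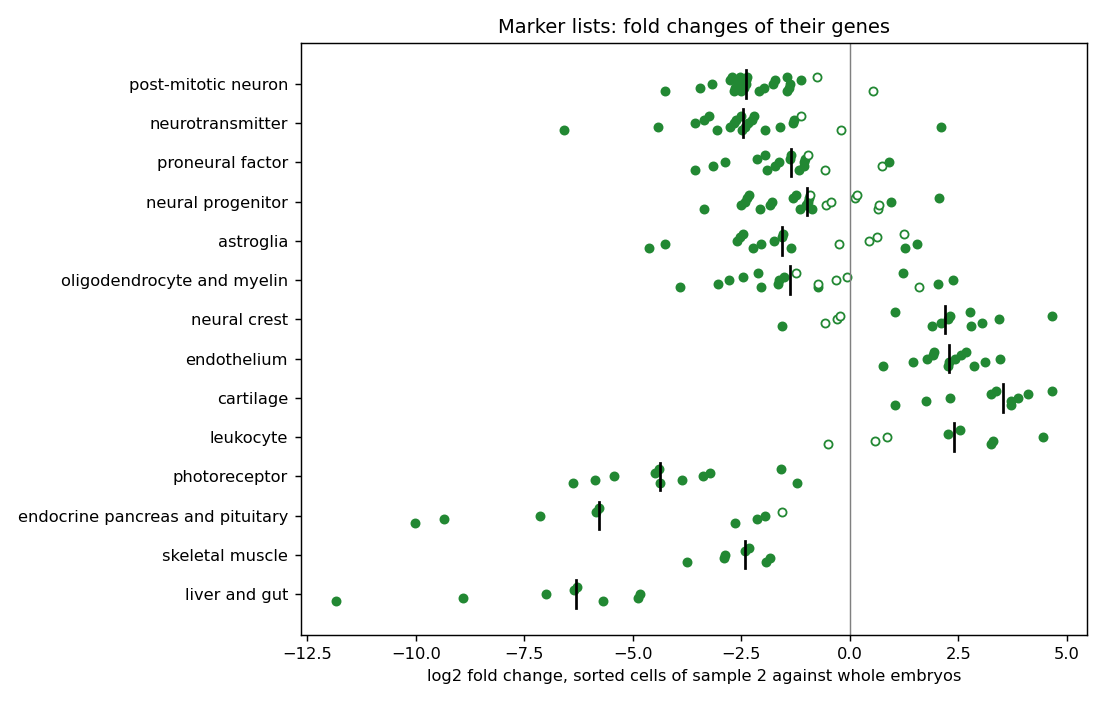
Log2 fold change of sorted cells of sample 2 against whole embryos (horizontal axis) for the tested genes of 14 marker lists (vertical axis), filled where the adjusted p was under 0.05 and open otherwise, with a bar at the median of each list. The 6 neural lists have medians between -2.46 and -0.99, the endothelial, cartilage, leukocyte and neural crest lists lie mostly above 0, and the photoreceptor, endocrine, muscle and liver and gut lists below 0.

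Markers of cell types outside the nervous system give a scale for these values, beside the 28.2% of all genes called lower and the 23.5% called higher in sample 2. There, the photoreceptor list had 11 of 11 genes lower (median log2 fold change -4.38), the list for endocrine pancreas and pituitary 8 of 9 (-5.77), skeletal muscle 7 of 7 (-2.41) and liver and gut 8 of 8 (-6.32). In a library of sample 2, up to 7 of the 11 endocrine genes had no count. Such genes, as prl (ENSDARG00000037946) at 0 CPM in A_2 and Q_2, passed the filter through the embryos and could only be called lower. Nothing is read from the count and median of that list. The skeletal muscle count was 1 without A_2. Leukocyte genes were higher in 5 of 8 cases (2.40) and neural crest genes in 10 of 14 (2.18). The neural crest factor TFAP2B (ENSDARG00000012667) was the 1 lower gene of that list, with 0 lower without A_2. The neural crest and cartilage lists share both genes listed as SOX9, so they are not separate counts. Of the crest genes, FOXD3 had no count in any library and crestin was at 0.068 to 0.68 CPM in all RNA samples. SOX10 was at 104 and 82.0 CPM in A_2 and Q_2 against 26.3 and 22.4 CPM in embryos. The medians of the neural lists, -0.99 to -2.46, reached from closer to 0 than that of muscle down to about that of muscle. These lists were chosen with results of these data known, and nothing is called particular to a list from these counts.

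Between both sorted samples, 10.9% of all genes tested were called in either direction, and nothing is read from the counts of the neural lists beside that share. Lower in sample 2 than in sample 1 were 3 of 26 post-mitotic neuron genes and 1 of 18 neurotransmitter genes. So were 1 of 17 genes of the proneural factor list, 2 of 24 progenitor genes and 1 of 16 astroglial genes. Higher was 1 progenitor gene, NOTCH3. The 3 neuronal genes were the complexin gene CPLX2 (ENSDARG00000061918), the synuclein gene sncb (ENSDARG00000104945) and the G protein subunit gene GNG3 (ENSDARG00000009553), lower by log2 fold changes of -2.02, -1.78 and -1.63 (edgeR adjusted p = 0.00091, 0.0078 and 0.011). The Notch target her4.1 was lower by -2.89 (SE 0.50, adjusted p = 1.103e-06). The others were DBH, the retinal factor gene atoh7 (ENSDARG00000069552), a copy of FABP7 (ENSDARG00000007697) and ID1. Of the 16 oligodendrocyte and myelin genes tested, 0 passed.

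The genes whose level followed that of a member most closely over the 6 RNA samples were sought among 17412 genes with a symbol and a mean of at least 1 CPM, by the root mean square difference of the centred log2(CPM + 0.5). Nearest to elavl3 were OTX1 (0.12) and zgc:112001 (0.13), and nearest to neurod1 were YWHAH (0.085) and SIX3 (0.096). Nearest to sox2 were SNTG2 (0.069) and RIC8A (0.073), to olig2 PRKAB1 (0.051) and RAB11B (0.089), to gfap LIM2 (0.093) and GJE1 (0.19), and to mbpa TUBB2B (0.13) and HHATL (0.14). OTX1 and SIX3 are homeobox genes of the forebrain and the eye, LIM2 and GJE1 are known from the lens of the eye, and TUBB2B is a tubulin gene of neurons. The others, among them both genes nearest to sox2 and both nearest to olig2, are not described here. No cell type is therefore read from this search. Among the members, neurod1 and sox2 (0.29), elavl3 and neurod1 (0.30) and gfap and mbpa (0.31) lay nearest to each other, and olig2 and gfap (1.25) farthest apart. With 6 RNA samples in 3 groups, likeness rests mainly on the difference between sorted cells and embryos and on the order of both kits.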

How the data were processed

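Polyadenylated RNA of 8 libraries was amplified with SMART-seq v4, tagmented with Nextera XT and sequenced. The authors used STAR, in a two-pass strategy against GRCz10, and deposited raw counts per Ensembl gene, as STAR writes them: whole numbers in a column that ignores strand and 2 columns for single strands, not normalized. Reads on multiple loci are not counted, and the column that ignores strand was used because SMART-seq v4 keeps no strand. No coordinates or sequences are given.

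CPM was computed on the counts assigned to genes. Portions a and b of an RNA were summed for tests. Sorted cells of sample 2 and of sample 1 were each compared with the whole embryos, and with each other with kit as a covariate, in edgeR (version 4.0.16, R 4.3.3) by quasi-likelihood, with TMM, filterByExpr at its defaults and Benjamini-Hochberg adjusted p under 0.05 over all genes tested. A standard error is the fold change divided by the root of F. The 95% intervals of fold changes were made from it by a normal approximation. Against embryos the test has few degrees of freedom, so there these intervals are narrower than true 95% intervals. Between both sorted samples, with kit in the fit, a gene has almost no replicates of its own. The spread there comes from all genes together, so these intervals do not measure the spread of the gene itself. The tests were tried on simulated counts with 200 genes changed 4-fold. Of these, 96.5% to 98.5% were recovered, and 3.02% to 4.37% of the calls were false. The simulated spread was smaller than the biological coefficient of variation of the data, 26.9% to 31.8%. Far fewer genes were changed than were called in the data, so these rates do not carry over to the data. Alternatives were DESeq2 version 1.42.0, other size factors and filters, the summed strand columns, thinning, kit as a block, portions entered separately, sample 1 added, and each RNA or portion left out. Counting intervals are 95% Wilson intervals and cover counting error only, since the reads carry no molecular identifiers. Tables, exact tests and plots were made in Python 3.11.15 with scipy 1.17.1, pandas 2.3.3 and matplotlib 3.10.9.

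Marker lists held 192 symbols, of which 182 matched the table of gene names, without regard to case and otherwise with the paralogue letter dropped, to 207 genes in 14 lists. Symbols are written as that table gives them, and 27000 of 35117 identifiers had one. The genes named are the 6 members, the genes of each list with the largest increase and decrease in sample 2 against embryos among those past the threshold at a mean of at least 1 CPM, list genes that go against their list, and the 2 genes most like each member. A gene that this rule names in the myelin list is not reported here, and most of those it names in the non-neural lists are given only within their list's count. Matching by symbol can bring in a gene other than the one meant (dld matched DLD, and stmn1b matched both genes listed as STMN1). List genes with almost no counts in sorted cells passed the filter through the embryos and could only be called lower. The counts of lower genes include them. The members and the lists were chosen with earlier results of these data known.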

Additional observations from a re-analysis of the deposited data

Results flagged for a closer look

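Both kits ranked 3 of the genes in opposite order in sorted cells and in embryos. The level with the RNeasy kit over that with the RNAqueous kit was 2.76 and 1.27 for elavl3 in sample 1 and sample 2 and 0.536 in embryos, 1.83 and 1.38 for neurod1 against 0.761, and 1.49 and 1.36 for olig2 against 0.666. Between both sorted samples the order was opposite for sox2, at 1.44 in sample 1 and 0.797 in sample 2, and for gfap, at 3.31 and 0.873. These differences were not tested, since each kit gave 1 RNA in each group, and the embryos of both kits were different animals. For mbpa the ratio was above 1 throughout, at 1.98, 1.44 and 1.09.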

How the results depend on the processing

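Of 216 member fold changes under alternatives, 201 kept their direction and side of the threshold, 13 kept the direction and lost the call, and 2 reversed between both sorted samples, where neither passed: neurod1 to -0.0054 with RLE size factors and elavl3 to -0.0345 in the fit without kit. Leaving out 1 RNA or portion left 3 to 6 members called in sample 2 against embryos (3 without A_2) and 5572 to 10760 genes in all, against 11045. In sample 1 it left 2 to 5 members (2 without A_1 or without A_unsorted) and 5912 to 8518 genes, against 8670. Fewer RNA samples enter these fits. Between both sorted samples 2149 genes passed, 980 with DESeq2, 1414 without kit and 5218 with portions entered separately, which counts 1 RNA as more than 1 sample. There, leaving out an RNA could not be fitted. The kit as a replicate block changed no call of the 6 genes (11718 and 7931 genes in all for sample 2 and sample 1). The labels pair no samples by kit, and deviations correlated at Spearman 0.29 (18969 genes) and -0.14 (18642 genes) against embryos and at -0.17 (17231 genes) between both sorted samples. Levels moved beyond 1 SD in 5 of 54 cases, as gfap in embryos, from 157 CPM to 135 CPM for each 1000000 uniquely mapped reads. The lowest counts of a member in a library, which limit precision, were 82 for olig2 and 88 for mbpa.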
